A study of Mus musculus with 68 samples.

Results

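The 10 genes described here mark the capillary endothelium of the lung: Car4, Ednrb, Apln, Aplnr, Gpihbp1, Plvap, Emcn, Ptprb, Cd93 and Cdh5. They were picked by name among the 24306 gene names of a mouse microarray; the rule used no measured value, though earlier results of these data were known when the list was drawn up. The array carries 13 probes for them, with 3 for Ednrb, 2 for Ptprb and 1 for each of the other genes, and each gene is given by its brightest probe over all arrays. RNA of alveolar septa and of vessel, both cut from mouse lung by laser microdissection, was measured on 68 arrays with 1 colour, 34 for each compartment. Every value below is a log2 intensity, so a difference of 1 is a doubling. Levels of different probes were not compared with each other.

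The 7 conditions, each sampled in septa and in vessel, were as follows. FGF10_CS arrays come from animals labelled as Fgf10 knock-down (Fgf10+/- in the treatment text) that had cigarette smoke for 3 months, and FGF10_RA arrays from animals with that label in room air. WT_CS and WT_RA arrays come from animals titled wild type, with smoke or room air for the same time. For WT_CS septa replicate 4 another label says knock-down, and the array was kept with its title. Overexp_CS8M arrays come from animals labelled Fgf10 overexpressing, and Control_CS8M arrays from animals labelled wild type, both with smoke for 8 months, and Control_RA8M arrays from animals labelled wild type in room air for 8 months. The 8-month exposure was followed by 1 week with or without doxycycline, and the labels do not say which of these groups had it. The growth text of every sample speaks of smoke for 3 months, which goes against the room-air and 8-month labels. Each group has 5 arrays, except FGF10_RA with 4. The promoter that drives the Fgf10 transgene, the strain and the age were not stated in the labels. The labels call the arrays of a group biological replicates but do not tie septa arrays to vessel arrays of the same animal, and p-values measure only the spread between these arrays. Xist, which marks female tissue in mice, was above 9.5 on the same number of septa and vessel arrays in each condition: 3 of 5 in FGF10_CS, 1 of 4 in FGF10_RA, 1 of 5 in WT_CS, 2 of 5 in WT_RA, 3 of 5 in Overexp_CS8M and in Control_CS8M, and 4 of 5 in Control_RA8M. Septa and vessel arrays of the same number matched in it in 28 of 34 cases, throughout in 4 of the 7 conditions. Whether the compartments share animals, and the part of sex in the comparisons, was not tested.

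The gas-exchange surface of the mouse lung is lined by a pair of capillary endothelial cell types. Aerocytes are large, thin cells apposed to alveolar type 1 cells and are known for Car4, Ednrb and Apln, while general capillary cells carry Aplnr, Gpihbp1, Plvap, Ptprb and Cd93 and act as progenitors in repair. Apelin, made by aerocytes, is the ligand of the receptor that general capillary cells carry, which makes the pair a local signalling system. Cdh5 and Emcn are found in endothelium of several kinds, Cdh5 in nearly all of it.

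The 3 arrays FGF10_CS septa replicates 1 and 5 and FGF10_CS vessel replicate 5 stood apart from their compartment. Their median correlations with the other arrays of the compartment were 0.287 and 0.006 in septa, against 0.745 to 0.947 for the other septa arrays, and 0.469 in vessel, against 0.709 to 0.895. The mean of the 10 genes on them was 7.99 and 6.33 in septa, against 10.28 to 12.79 on the other septa arrays, and 8.95 in vessel, against 9.90 to 11.84. Results for the 10 genes are therefore given with all arrays, without these 3 arrays or both. A value given for 1 of these fits can differ in the other. The targeted gene itself did not follow the labels throughout. Fgf10 averaged 8.36 ± 0.60 (SD, n = 4) on FGF10_RA septa arrays and 7.71 ± 0.58 (SD, n = 5) on WT_RA septa arrays, a log2 difference of 0.65 ± 0.78 (SE) that missed the threshold (limma adjusted p = 1.00). In smoke it averaged 5.82 ± 2.21 on FGF10_CS septa arrays and 8.50 ± 1.29 on WT_CS septa arrays (SD, n = 5 each; limma adjusted p = 0.0492), and without the 3 arrays the difference was -1.65 with an adjusted p of 0.998. On Overexp_CS8M septa arrays it averaged 8.21 ± 0.91, against 9.01 ± 1.11 on Control_CS8M septa arrays (SD, n = 5 each; limma adjusted p = 1.00). Directions for the knock-down and the overexpression below are therefore those of the libraries labelled so.

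Among the 10 genes, septa exceeded vessel most in size for Car4, Ednrb and Apln, known for aerocytes, and for Aplnr, carried by general capillary cells. Of the 10 genes, 5 were higher in septa over the 7 conditions and none was lower (limma, Benjamini-Hochberg adjusted p under 0.05), while 19.9% of the 23877 genes tested passed in either direction and 11% were higher. Their median log2 difference was 1.08, against -0.01 over all genes tested. Car4, Ednrb, Apln, Aplnr and Gpihbp1 were the genes that rose in septa, by 2.22-fold to 6.86-fold. Without the 3 arrays that stand apart, Cd93 and Cdh5 also passed, which made 7 of the 10 genes against 18.6% of genes called higher, with a median of 1.39. In bulk tissue, fewer cells of a type and less RNA per cell cannot be told apart.

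Car4, the carbonic anhydrase anchored on the outer face of lung capillary cells, ran from 5.16 through a median of 11.06 to 12.89 over the 34 septa arrays, and from 4.34 through 8.53 to 11 over the 34 vessel arrays. The compartments overlapped, but 31 septa arrays lay above the vessel median and 20 above every vessel array. The fitted difference was 2.24 ± 0.32 (SE), or 4.73-fold (limma adjusted p = 2.43e-07), and 2.37 ± 0.27 without the 3 arrays. The endothelin B receptor Ednrb, which clears endothelin from the circulation, ran from 7.30 through 11.50 to 15.02 in septa and from 3.83 through 9.87 to 11.05 in vessel. Of its septa arrays 24 lay above every vessel array, and the highest value, 15.02, belonged to an array that stands apart. Its difference was 1.90 ± 0.33, or 3.74-fold (limma adjusted p = 1.14e-05), and its other probes, which are dimmer, gave 1.43 (adjusted p = 0.000157) and 1.39 (adjusted p = 0.0027).

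Apln encodes the secreted peptide apelin. It ran from 7.70 through 9.67 to 10.80 in septa and from 3.97 through 6.88 to 10.17 in vessel. Every septa array lay above the vessel median, yet the vessel arrays were spread so widely that 9 septa arrays passed the highest of them. Apln was above percentile 40 of its array, about 5.32, on 22 of 34 vessel arrays, so the size of its difference, 2.78 ± 0.39 or 6.86-fold (limma adjusted p = 1.38e-07), rests partly on dim vessel values. Its receptor Aplnr ran from 5.43 through 10.26 to 12.61 in septa and from 4.75 through 7.81 to 10.57 in vessel. In 33 of 34 septa arrays Aplnr lay above the vessel median, and its difference was 2.30 ± 0.29, or 4.92-fold (limma adjusted p = 1.10e-08). Without the 3 arrays the differences of Apln and Aplnr were 2.69 and 2.39. Ligand and receptor were thus both higher in septa, in all 7 conditions by their group means.

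Gpihbp1, the protein that carries lipoprotein lipase to the lumen of capillaries, ran from 4.57 through 13.44 to 14.89 in septa and from 10.32 through 11.85 to 14.26 in vessel. The lowest septa value was that of an array that stands apart, and 30 of the 34 septa arrays lay above the vessel median. Its difference was 1.15 ± 0.30, or 2.22-fold (limma adjusted p = 0.0032), and 1.39 ± 0.21 without the 3 arrays. Cd93, a C-type lectin-like receptor of endothelium, ran from 4.51 through 14.07 to 14.67 in septa and from 11.49 through 13.40 to 14.86 in vessel. Its difference was 0.27 ± 0.30 (limma adjusted p = 0.603) with all arrays, and it passed at 0.72 ± 0.14 (adjusted p = 5.07e-05) without the 3 arrays. Leaving out FGF10_CS septa replicate 5 alone gave 0.51 (adjusted p = 0.0479).

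Cdh5, VE-cadherin, which joins endothelial cells at their adherens junctions, ran from 4.09 through 14.76 to 15.35 in septa and from 5.82 through 13.15 to 14.59 in vessel. Its 21 highest septa arrays lay above every vessel array, near the upper end of the scale at 15.98, while its lowest septa arrays were those that stand apart. Its difference was 1.02 ± 0.45 (limma adjusted p = 0.0993) with all arrays and 1.38 ± 0.18 (adjusted p = 7.95e-09) without the 3 arrays. Leaving out FGF10_CS septa replicate 1 or 5 alone also brought it past the threshold, at 1.24 in either case (adjusted p = 0.0164 and 0.0172).

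Plvap, Emcn and Ptprb did not pass in septa against vessel in either fit. Plvap, the protein of the diaphragms of caveolae and fenestrae, ran from 5.33 through 13.24 to 14.09 in septa and from 11.16 through 13.27 to 14.22 in vessel. Its difference without the 3 arrays was -0.01, with a 95% interval from -0.31 to 0.29. Emcn, an endothelial sialomucin, ran from 4.95 through 10.32 to 11.57 in septa and from 4.05 through 10.28 to 12.18 in vessel, and its difference without the 3 arrays was -0.07, with an interval from -0.68 to 0.53. Ptprb, the endothelial phosphatase VE-PTP, which acts on Tek and on VE-cadherin, ran from 3.67 through 13.58 to 14.40 in septa and from 11.97 through 13.51 to 14.22 in vessel. Its difference was -0.38 ± 0.33 (SE) with all arrays and 0.13 without the 3 arrays, with an interval from -0.16 to 0.42. The other probe of Ptprb is dim, with a mean of 6.18, and gave 0.85 (adjusted p = 0.00926) with all arrays, opposite in sign to the brighter probe, and 0.69 (adjusted p = 0.0205) without the 3 arrays. The compartments overlapped almost fully in these 3 genes.

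**Figure D1:**
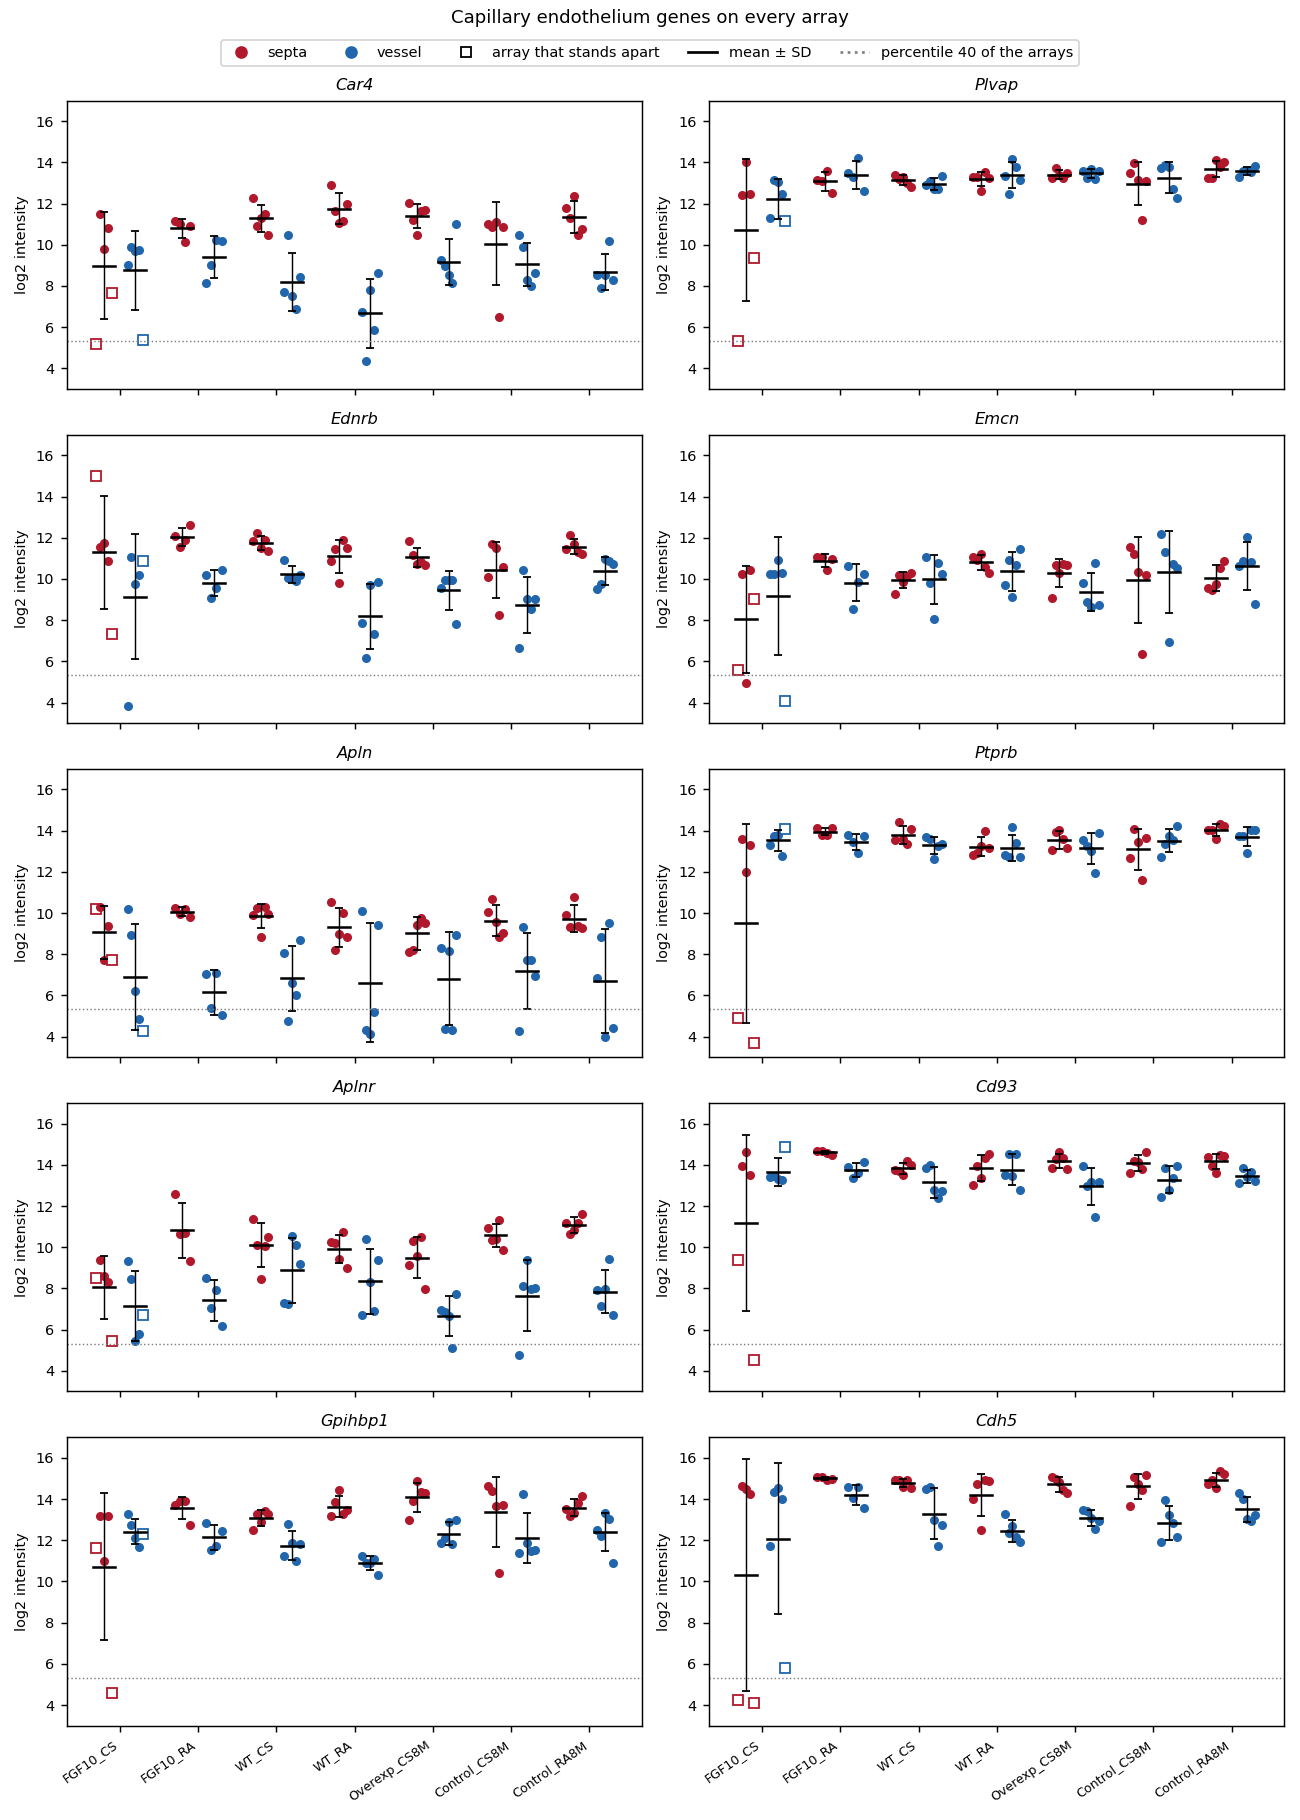
Log2 intensity of each gene (y axis) on every array in the 7 conditions (x axis), septa in red left of vessel in blue, with bars for the mean ± SD, open squares for the 3 arrays that stand apart and a dotted line at the mean percentile 40 of the arrays (5.32). Septa points of Car4, Ednrb, Apln and Aplnr sit mostly above vessel points, while Plvap, Emcn and Ptprb overlap.

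**Figure D2:**
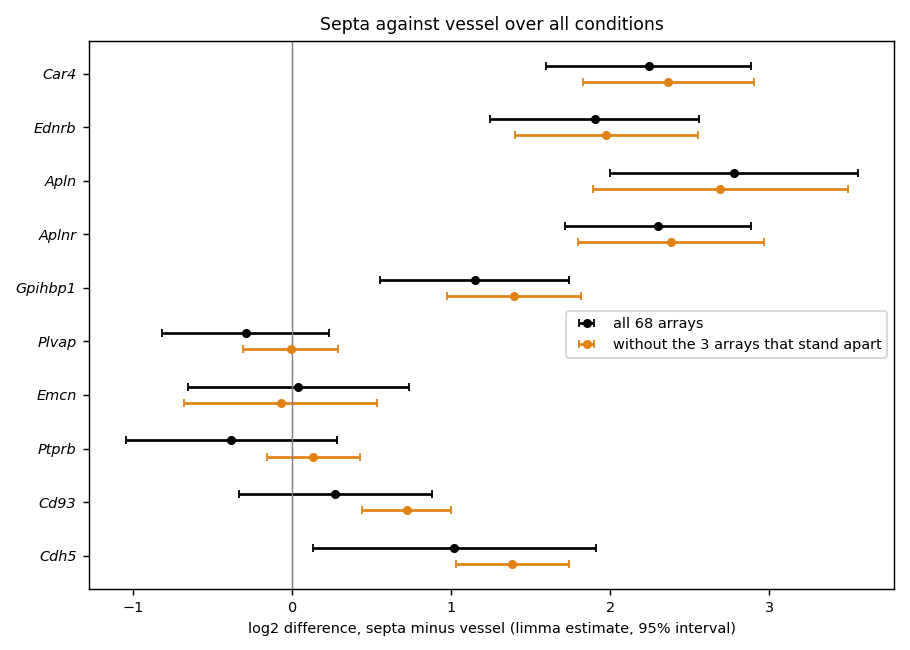
Log2 difference, septa minus vessel, over the 7 conditions (x axis) for each gene (y axis), with points for the limma estimate and bars for its 95% interval, for all 68 arrays and without the 3 arrays that stand apart. Car4, Ednrb, Apln, Aplnr and Gpihbp1 lie above 0 in both fits, and Cd93 and Cdh5 move up and narrow without the 3 arrays.

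Promoter windows were at hand for 4 of the 10 genes, Car4, Ednrb, Apln and Emcn, of which the first 3 rose together in septa and Emcn did not. They are shown to set the sequence of genes that moved together beside that of the gene that did not. Each runs from 250 bases before to 50 after a RefSeq transcript start, 5′ to 3′ on the strand of the gene, in GRCm38.p6. For Ednrb and Emcn this start lies inside the gene span given below. Capitals mark matches on either strand to the core letters bound by ETS factors (GGAAG), by hypoxia-inducible factors (ACGTG) and by SOX factors (AACAAT), read on both strands, and no match overlaps another. The windows lie at chr11:84957504-84957803 on the plus strand (Car4), chr14:103843652-103843951 on the minus strand (Ednrb), chrX:48034804-48035103 on the minus strand (Apln) and chr3:137340828-137341127 on the plus strand (Emcn).
Car4: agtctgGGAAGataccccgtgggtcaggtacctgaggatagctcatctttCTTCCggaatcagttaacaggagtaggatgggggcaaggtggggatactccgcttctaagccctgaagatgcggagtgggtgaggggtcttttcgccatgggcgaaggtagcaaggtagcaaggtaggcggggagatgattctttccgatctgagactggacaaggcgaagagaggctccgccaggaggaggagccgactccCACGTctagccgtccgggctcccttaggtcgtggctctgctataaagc
Ednrb: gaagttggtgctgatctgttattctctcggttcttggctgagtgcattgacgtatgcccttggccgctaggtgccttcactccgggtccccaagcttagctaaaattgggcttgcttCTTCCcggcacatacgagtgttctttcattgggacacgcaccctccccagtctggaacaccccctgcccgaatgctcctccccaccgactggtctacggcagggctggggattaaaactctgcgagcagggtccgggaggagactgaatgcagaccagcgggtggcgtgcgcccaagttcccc
Apln: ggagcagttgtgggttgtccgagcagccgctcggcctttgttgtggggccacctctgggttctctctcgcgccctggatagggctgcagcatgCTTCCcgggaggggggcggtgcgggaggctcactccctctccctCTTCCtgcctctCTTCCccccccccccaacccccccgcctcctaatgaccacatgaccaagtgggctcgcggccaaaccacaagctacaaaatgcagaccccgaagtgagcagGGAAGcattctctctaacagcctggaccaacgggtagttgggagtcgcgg
Emcn: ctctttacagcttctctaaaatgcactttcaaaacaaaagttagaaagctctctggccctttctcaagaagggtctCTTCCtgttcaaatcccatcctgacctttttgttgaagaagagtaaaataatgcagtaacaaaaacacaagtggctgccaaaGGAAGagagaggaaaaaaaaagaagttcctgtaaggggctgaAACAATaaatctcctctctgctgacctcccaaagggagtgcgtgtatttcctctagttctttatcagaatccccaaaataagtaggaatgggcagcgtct
The ETS core was found 4 times in the Apln window, 2 times in those of Car4 and Emcn and 1 time in that of Ednrb. It stands in 71.4% of the 32851 promoter windows of this length, so its presence in all 4 sets none of them apart. ACGTG, the only form of the hypoxia core that was searched, was found 1 time, in Car4, and stands in 19.6% of all windows. The SOX core was found 1 time, in Emcn, and stands in 10.7%. These are matches of letters and not measured binding.

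In GRCm38.p6, Car4 is at chr11:84957754-84966054, Ednrb at chr14:103814615-103844508, Apln at chrX:48025146-48034853, Aplnr at chr2:85136360-85139923 and Gpihbp1 at chr15:75596630-75598213. Plvap is at chr8:71497753-71511806, Emcn at chr3:137341062-137431069, Ptprb at chr10:116275502-116389538, Cd93 at chr2:148436651-148443535 and Cdh5 at chr8:104101613-104144504.

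Other genes of both capillary types were also mostly higher in septa than in vessel. Among 7 further aerocyte genes, 6 were higher in septa and none lower with all arrays, where 11% of all genes were higher and 8.91% lower, with a median log2 difference of 1.41. All 7 were higher without the 3 arrays, where 18.6% of all genes were higher and 15% lower. Fibin rose by 2.64, the vascular endothelial growth factor receptor Kdr by 2.59 and the transcription factor Tbx2 by 1.41. Among 8 further general capillary genes, 5 were higher and none lower, with a median of 1.54, and 7 were higher without the 3 arrays. Glp1r, the receptor of glucagon-like peptide 1, rose by 2.62, the semaphorin Sema3c by 2.10 and the receptor kinases Kit and Tek by 1.98 and 1.53. Of 18 genes shared by endothelium in general, 4 were higher and 2 lower, with a median of 0.36, and 8 were higher and 3 lower without the 3 arrays. The endothelial nitric oxide synthase Nos3 fell by 1.69. Of 15 arterial and venous genes, 3 were higher and 4 lower (5 and 5 without the 3 arrays), with von Willebrand factor, Vwf, and P-selectin, Selp, falling by 2.67 and 1.87. All 6 lymphatic genes were tested, of which 4 were lower and none higher in both fits.

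In the apelin and endothelin pathway 7 of 10 genes were tested, with 2 higher in septa and 1 lower, and with 3 higher and 4 lower without the 3 arrays. The endothelin converting enzyme Ece1 rose by 1.21 ± 0.15 (SE; limma adjusted p = 6.23e-09) and the ligand Edn3 by 1.63, while Edn2 fell by 1.04 and Edn1 had 0.79 (adjusted p = 0.109). Edn1 passed without the 3 arrays, at 0.94 (adjusted p = 0.0153), and there the peptidases Mme, Ece2 and Ecel1 were also called lower, at -0.75, -0.46 and -0.61. The other 3 were not analysed here. Around Gpihbp1, 13 genes of intravascular lipolysis were tested, with 3 higher and 1 lower (4 and 1 without the 3 arrays). Lipoprotein lipase, Lpl, the cargo of Gpihbp1, had 0.38 (adjusted p = 0.432). The lipase Lipg, the fatty acid transporter Cd36 and the binding protein Fabp5 rose by 0.94, 0.93 and 0.95, while Fabp4 fell by 1.20. Around Cdh5, 13 genes of the VE-cadherin junction were tested, with 4 higher and 1 lower, and with 9 higher and 1 lower without the 3 arrays. The catenin Jup and the junctional molecule F11r rose by 1.41 and 1.03, and Jam2 fell by 0.89. The other genes called higher with all arrays were Kdr and Tek, which were already counted in the capillary lists above.

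Markers of several other cell types differed between the compartments, while other lists were mixed. Leukocyte genes went both ways with all arrays, with Marco at 2.70 and Itgam at -1.06, and so did pericyte genes, with Higd1b at 1.68 and Abcc9 at -2.19. Of the alveolar type 2 genes, Lamp3, Etv5 and Slc34a2 rose by 1.38, 1.26 and 1.25 with all arrays, and the others did not pass. Sftpc had -0.33 (limma adjusted p = 0.541), and -0.01 without the 3 arrays. Its medians without the 3 arrays, 15.92 in septa and 15.94 in vessel, lay near the upper end of the scale at 15.98, which limits what it can show. No mesothelium gene tested passed. Of 8 alveolar type 1 genes 6 were higher in septa (8 without the 3 arrays), and their mean level ran from 12.51 to 14.03 on septa arrays and from 10.91 to 12.76 on vessel arrays, without the 3 arrays. All 8 genes of vascular smooth muscle fell in septa, with a median of -3.42. Their mean level ran from 9.07 to 10.25 in septa and from 11.25 to 14.00 in vessel, without the 3 arrays. Without the 3 arrays, the mean level of the 18 general endothelial genes ran from 10.31 through a median of 10.97 to 11.57 in septa. In vessel it ran from 9.75 through 10.59 to 11.33, so the ranges overlapped in part. All 6 genes of the heart muscle sleeve of pulmonary veins were lower in septa, with a median of -3.71, and so were 6 of 8 fibroblast and 4 of 6 airway genes (5 without the 3 arrays). The mean level of the muscle sleeve genes ran from 4.81 to 6.74 in septa and from 6.31 to 13.43 in vessel, without the 3 arrays. The part of these cells in the differences of the capillary genes was not tested.

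**Figure D3:**
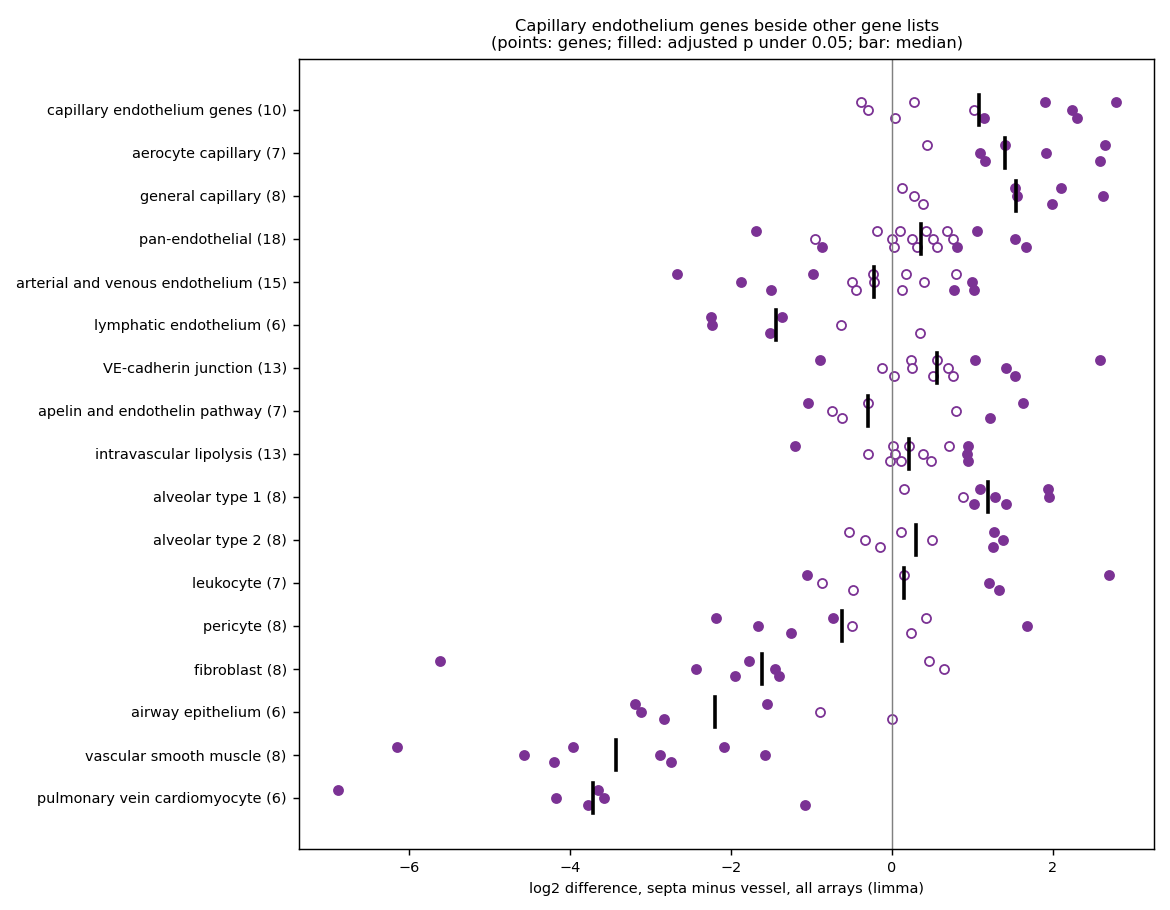
Log2 difference, septa minus vessel, over all 68 arrays (x axis) for each gene of 17 lists (rows, number of genes tested in brackets), with points for genes, filled where the adjusted p is under 0.05, and bars for list medians. The 10 capillary genes have a median of 1.08, the aerocyte and general capillary lists 1.41 and 1.54, and the vascular smooth muscle list -3.42.

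Single conditions gave fewer calls, all of them higher in septa except in FGF10_CS with all arrays. WT_RA had the most, with 3 genes higher in septa and none lower, against 4.99% of genes called. Car4 had 12.89, 11.64, 11.04, 11.14 and 12.00 on WT_RA septa arrays, against 6.74, 4.34, 7.78, 5.86 and 8.65 on WT_RA vessel arrays. The groups did not overlap, and the difference of 5.07 ± 0.84 (SE; limma adjusted p = 6.81e-05) was the largest of Car4 in any condition. Ednrb had 10.89, 11.44, 9.80, 11.89 and 11.49 on WT_RA septa arrays, against 7.87, 6.16, 9.70, 7.31 and 9.84 on WT_RA vessel arrays. The lowest septa array lay just under the highest vessel array, and the difference was 2.92 ± 0.85 (adjusted p = 0.0306), which reached 0.113 at most on leaving out any of septa replicates 2, 4 and 5 or vessel replicates 2 and 4. Its other probes gave 0.24 (adjusted p = 0.906) and 2.33 (adjusted p = 0.127). Gpihbp1 had 13.19, 13.84, 14.43, 13.25 and 13.46 on WT_RA septa arrays, against 11.22, 10.88, 10.91, 11.07 and 10.32 on WT_RA vessel arrays. Its groups lay well apart, with a difference of 2.76 ± 0.77 (adjusted p = 0.0234) whose adjusted p reached 0.0604 at most on leaving out septa replicate 2 or 3 or vessel replicate 5. WT_RA vessel had the lowest mean of the vessel groups for Car4, Ednrb and Gpihbp1, at 6.67, 8.18 and 10.88. Median correlations of its arrays with the other vessel arrays ran from 0.709 to 0.823. The median of this measure was 0.863 over the 33 vessel arrays that do not stand apart.

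In WT_CS 1 gene was called, against 2.75% of genes. Car4 had 12.26, 10.93, 11.28, 11.47 and 10.48 on WT_CS septa arrays, against 7.69, 10.47, 7.52, 6.86 and 8.42 on WT_CS vessel arrays. The groups did not overlap, with the lowest septa array just above vessel replicate 2, and the difference was 3.09 ± 0.84 (SE; limma adjusted p = 0.0326), but its adjusted p ran up to 0.169 on leaving out single WT_CS arrays (septa replicates 1 to 4, vessel replicates 3 to 5). With WT_CS septa replicate 4, whose labels conflict, moved to FGF10_CS, the Car4 difference was 3.05 (limma adjusted p = 0.0628). In Control_RA8M 1 gene was called, against 0.645% of genes. Aplnr had 11.16, 10.62, 10.84, 11.18 and 11.59 on Control_RA8M septa arrays, against 7.94, 7.14, 7.99, 9.44 and 6.73 on Control_RA8M vessel arrays. All septa arrays lay above all vessel arrays, with a difference of 3.23 ± 0.76 (adjusted p = 0.0192), which reached 0.0743 at most on leaving out septa replicate 1 or 5 or vessel replicate 2 or 5.

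No gene of the 10 was called in FGF10_RA, against 0.205% of genes, in Overexp_CS8M, against 0.348%, or in Control_CS8M, against 0.440%, where limma gave 3, 4 and 2 of the 10 genes an unadjusted p under 0.05, against 4.89%, 6.86% and 8.93% of genes. In FGF10_CS 2 genes were lower in septa, against 8.81% of genes called. Ptprb had 4.90, 13.57, 12.00, 13.32 and 3.67 on FGF10_CS septa arrays, against 13.28, 13.76, 13.78, 12.76 and 14.07 on FGF10_CS vessel arrays. Both very low septa values are those of the arrays that stand apart, and the difference of -4.03 (limma adjusted p = 0.00206) was -0.43 (adjusted p = 0.708) without the 3 arrays. The dimmer Ptprb probe passed in the opposite direction, at 2.37 (adjusted p = 0.014), and had 1.22 (adjusted p = 0.429) without them. Cd93 had -2.47 (adjusted p = 0.0371) there with all arrays and 0.66 (adjusted p = 0.480) without them.

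More of the genes passed without the 3 arrays within conditions other than FGF10_CS. The 3 arrays are all FGF10_CS, so the differences in the other conditions were the same in both fits. What changed there was the spread shared by all groups and the set of genes tested. Aplnr was called in FGF10_RA (3.40, adjusted p = 0.0186, 1 gene against 1.20% of genes), Overexp_CS8M (2.84, adjusted p = 0.0219, 2 genes against 2.05%), Control_CS8M (2.92, adjusted p = 0.0146, 2 genes against 3.16%) and Control_RA8M (2 genes against 3.07%). Cdh5 was called in WT_CS (1.48, 3 genes against 13.5%), WT_RA (1.74, 4 genes against 16.0%), Overexp_CS8M (1.63) and Control_CS8M (1.79), with limma adjusted p between 0.00478 and 0.0349. Car4 was called in Control_RA8M (2.67, adjusted p = 0.0146) besides WT_CS and WT_RA, and Apln in WT_CS (3.03, adjusted p = 0.0357). None was called in FGF10_CS, against 2.21% of genes.

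**Figure D4:**
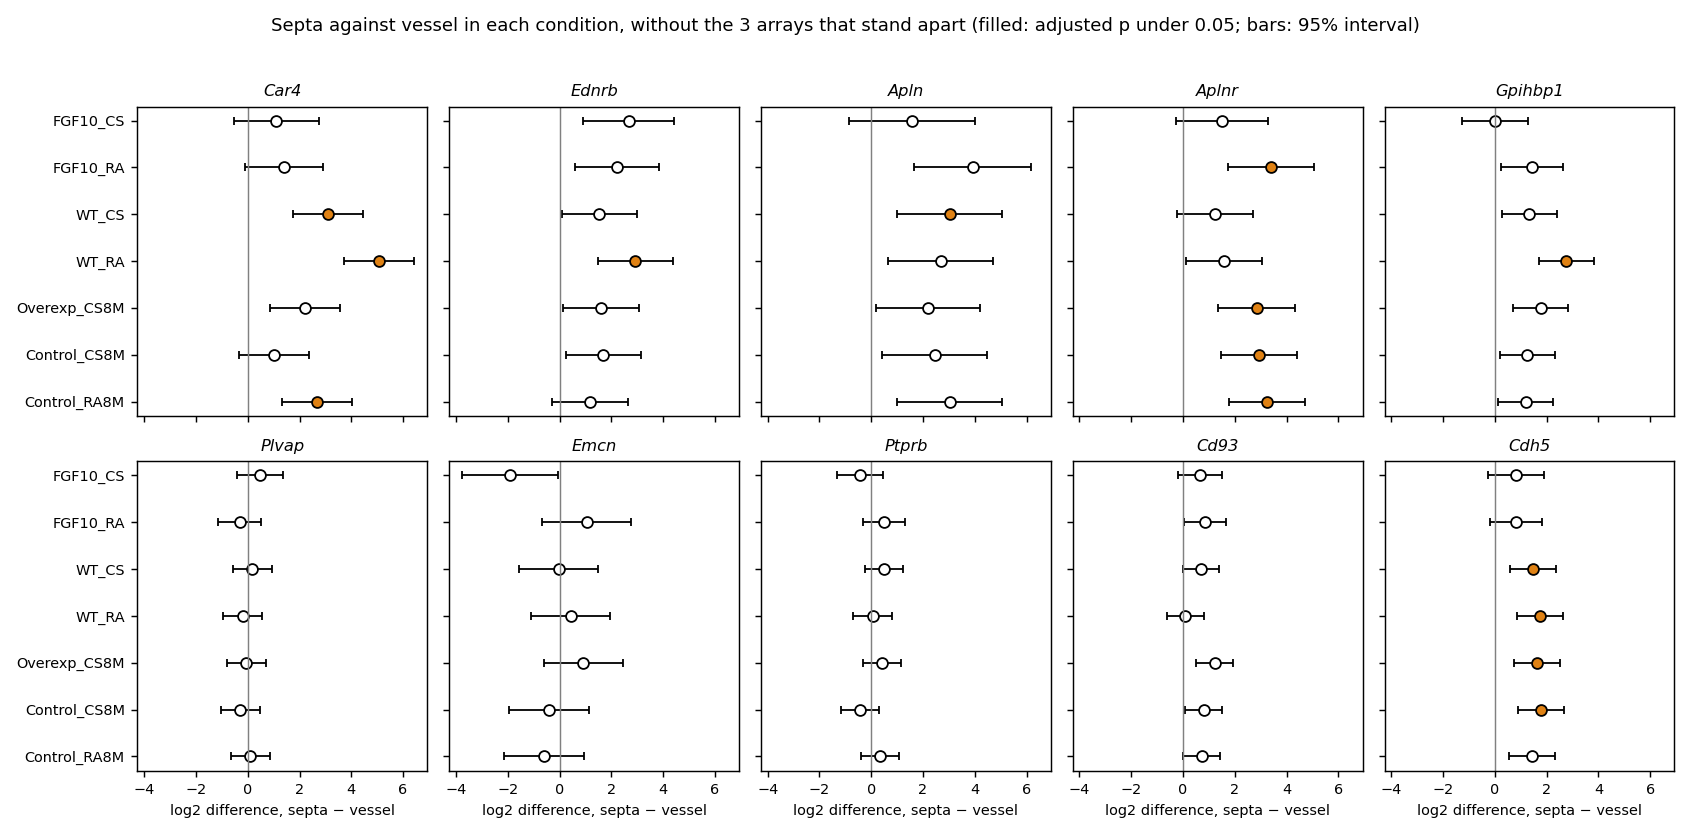
Log2 difference, septa minus vessel (x axis), in each of the 7 conditions (rows) for each gene (panels), fitted without the 3 arrays that stand apart, with bars for the 95% interval and filled points where the adjusted p is under 0.05. Points of Car4, Ednrb, Apln and Aplnr lie above 0 in all 7 conditions, and Car4 reaches 5.07 in WT_RA.

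Within the septa, the knock-down label under smoke gave the only calls among the 160 tests of these genes within compartments. Of the 10 genes 2 were lower in FGF10_CS septa than in WT_CS septa and none was higher, against 3.04% of genes called, of which 2.61% were lower. Cdh5 had 4.23, 14.63, 14.47, 14.24 and 4.09 on FGF10_CS septa arrays, against 14.91, 14.91, 14.56, 14.94 and 14.53 on WT_CS septa arrays. The arrays that stand apart had almost none of the signal, while the other 3 FGF10_CS arrays lay at or just below the lower end of the WT_CS arrays. The fit gave -4.44 ± 1.27 (SE; limma adjusted p = 0.0492) with all arrays and -0.32 ± 0.41 (adjusted p = 0.998) without them. Ptprb, given above for FGF10_CS, had 13.55, 14.40, 13.59, 13.34 and 14.06 on WT_CS septa arrays. It had -4.29 ± 1.11 (adjusted p = 0.0487) with all arrays and -0.82 ± 0.44 (adjusted p = 0.998) without them, and its other probe had 1.79. Both calls were lost on leaving out any of 30 of the 34 septa arrays, while 8 of the 10 genes passed without FGF10_CS replicate 2 or 4. Both were also lost with WT_CS replicate 4, whose labels conflict, moved to FGF10_CS (limma adjusted p = 0.237 for each).

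All 10 genes were below 0 in that comparison, with a median log2 change of -2.33, against -0.16 over all genes tested, and 8 of them had an unadjusted limma p under 0.05, against 28.7% of genes. Without the 3 arrays the median was -0.60, and no gene was called, with 0% of genes called. Other cell types moved in the same way: the median change was -2.15 for alveolar type 1 genes, -2.13 for alveolar type 2 genes and -1.69 for general endothelial genes with all arrays, and -0.13, -0.08 and -0.14 without the 3 arrays. On 1 of the arrays that stand apart the surfactant gene Sftpc, which lies between 15.17 and 15.98 on the other septa arrays, was at 4.59. The difference between the compartments of this comparison was called for 1 gene, Ptprb, at -4.52 ± 1.22 (adjusted p = 0.0369, against 2.56% of genes), and was -0.92 ± 0.58 (adjusted p = 0.539) without the 3 arrays. The other 7 compartment differences called none of the 10 genes and none of all genes tested (limma, 0%).

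Smoke in animals labelled knock-down, FGF10_CS against FGF10_RA, called none of the 10 genes in septa, where 0% of genes were called and limma gave 8 of the 10 genes an unadjusted p under 0.05, against 28.3% of genes. Aplnr had 8.51, 9.39, 8.61, 8.29 and 5.43 on FGF10_CS septa arrays, against 12.61, 10.62, 10.71 and 9.32 on FGF10_RA septa arrays. The groups overlapped at 1 value, 9.39 against 9.32, and the lowest value belongs to replicate 5, which stands apart. The change was -2.77 ± 0.69 (SE; limma adjusted p = 0.0634) with all arrays and -2.05 ± 0.64 (unadjusted p = 0.00331, adjusted p = 0.807) without them. Emcn had 5.58, 10.22, 4.95, 10.43 and 9.04 on FGF10_CS septa arrays, against 11.07, 11.09, 10.41 and 10.96 on FGF10_RA septa arrays. Its lowest value, 4.95, lay on replicate 3, which does not stand apart, and its change without the 3 arrays was -2.35 ± 0.93 (adjusted p = 0.846). With FGF10_CS septa replicate 2 left out, 8 of the 10 genes passed in this comparison, with replicate 4 left out 7, and with replicate 3 left out 5; each of these fits keeps the arrays that stand apart. The interaction of smoke and knock-down called none of the 10 genes in septa either, against 0% of genes, with 4 of the 10 under an unadjusted p of 0.05, against 18.7% of genes. Aplnr had an interaction of -2.24 ± 0.83 (adjusted p = 0.684) without the 3 arrays.

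The knock-down label in room air and smoke in wild type at 3 months gave no calls in septa. For FGF10_RA against WT_RA none of the 10 genes was called in septa, against 0% of genes, and for WT_CS against WT_RA none was called, against 0.00465%. In neither comparison did limma give any of the 10 genes an unadjusted p under 0.05 with all arrays, against 2.27% and 3.49% of genes, and their changes ran from -0.95 to 0.93 and from -0.86 to 0.66. Cd93 had 14.67, 14.67, 14.57 and 14.49 on FGF10_RA septa arrays, against 13.03, 13.92, 13.36, 14.35 and 14.54 on WT_RA septa arrays. The FGF10_RA values were close together at the top of the WT_RA range, and the change of 0.76 ± 0.32 without the 3 arrays did not pass (unadjusted p = 0.0253, adjusted p = 0.715).

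In vessel, none of the 10 genes was called in any of the 8 comparisons. Genes called numbered 5.39% for FGF10_CS against WT_CS, 0.341% for FGF10_RA against WT_RA, 0.180% for FGF10_CS against FGF10_RA, 0.144% for WT_CS against WT_RA and 0.0224% for the interaction. They were 0% for smoke at 8 months and for overexpression after smoke, and 0.0404% for overexpression against room air. Limma gave an unadjusted p under 0.05 to 7 of these 80 vessel tests, or 8.75%, against 10.5% of the tests of all genes. Car4 had 8.14, 9.02, 10.24 and 10.19 on FGF10_RA vessel arrays, against 6.74, 4.34, 7.78, 5.86 and 8.65 on WT_RA vessel arrays. The FGF10_RA arrays were higher, with 1 overlapping pair, and the change of 2.72 ± 0.76 missed the threshold without the 3 arrays (unadjusted p = 0.00112, adjusted p = 0.0636) and with all arrays (adjusted p = 0.151). Cdh5 had 14.59, 14.06, 14.58 and 13.57 on FGF10_RA vessel arrays, against 13.27, 12.33, 12.67, 12.14 and 11.89 on WT_RA vessel arrays. These groups did not overlap, at a change of 1.74 ± 0.56 without the 3 arrays (adjusted p = 0.105), where 0.977% of genes were called. Gpihbp1 had 12.85, 11.52, 11.74 and 12.42 on FGF10_RA vessel arrays, against 11.22, 10.88, 10.91, 11.07 and 10.32 on WT_RA vessel arrays, and its groups did not overlap either, at 1.25 ± 0.53 (adjusted p = 0.210).

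Other lists moved beside these vessel values. In the same comparison without the 3 arrays the median change was 1.24 for further aerocyte genes, 1.06 for further general capillary genes, 0.56 for alveolar type 1 genes, 0.06 for general endothelial genes and 2.33 for the muscle sleeve genes, and the part of the cells that were cut was not tested. The change of Car4 in septa minus its change in vessel was -3.67 ± 1.02 without the 3 arrays (unadjusted p = 0.000653, adjusted p = 0.254, against 0.0215% of genes called), which did not pass. For smoke in wild type, Car4 and Ednrb in vessel had 1.52 ± 0.71 (adjusted p = 0.307) and 2.04 ± 0.90 (adjusted p = 0.271) without the 3 arrays. These comparisons share the WT_RA vessel arrays, which had the lowest vessel group means for Car4, Ednrb and Gpihbp1, as given above. For smoke in wild type in vessel, the dimmer probes of Ednrb had -1.29 and 1.15 with all arrays.

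Smoke for 8 months gave no call among the 10 genes in septa, against 0.0232% of genes, and with all arrays limma gave none an unadjusted p under 0.05, against 7.23%. In the fit without the 3 arrays, 3 of the 10 (Car4, Ednrb and Ptprb) were under it, against 18.3% of genes. All 10 were below 0 in both fits, with a median of -0.41, against 0.05 over all genes with all arrays and 0.04 without the 3. For 7 of the 10 genes the lowest value of the smoke group was that of Control_CS8M replicate 4. The mean of the 10 genes was 10.28 on that array, against 12.07 to 12.66 on the others of its group. Car4 had 11.02, 10.84, 11.09, 6.48 and 10.85 on Control_CS8M septa arrays, against 11.80, 11.32, 12.35, 10.48 and 10.79 on Control_RA8M septa arrays. The smoke group lay in the lower part of the room-air range apart from replicate 4, which was far below. The change of -1.29 ± 0.62 without the 3 arrays (adjusted p = 0.262) was -0.40 on leaving out that replicate in the fit of all other arrays. Ednrb and Ptprb, at -1.13 ± 0.46 (adjusted p = 0.187) and -0.94 ± 0.38 (adjusted p = 0.182), were -0.59 and -0.57 without it.

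The overexpression label after smoke, Overexp_CS8M against Control_CS8M, called none of the 10 genes in septa, against 0% of genes, and limma gave none of them an unadjusted p under 0.05 with all arrays, against 2.27% of genes. Car4 had 12.02, 11.18, 10.48, 11.62 and 11.67 on Overexp_CS8M septa arrays, against the Control_CS8M values above. Its change of 1.34 was 0.44 without Control_CS8M septa replicate 4. Against room air, Overexp_CS8M septa also called none, against 0.00465% of genes, with 1 of the 10 under an unadjusted p of 0.05, against 2.38%. Aplnr had 9.13, 10.28, 9.60, 10.52 and 7.98 on Overexp_CS8M septa arrays, against 11.16, 10.62, 10.84, 11.18 and 11.59 on Control_RA8M septa arrays. These groups did not overlap, and the change of -1.58 ± 0.53 without the 3 arrays did not pass (unadjusted p = 0.00589, adjusted p = 0.423), where 0.104% of genes were called.

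Over all 16 comparisons within compartments, 28 of the 160 tests of these genes, or 17.5%, had an unadjusted limma p under 0.05 with all arrays, against 11.1% of the tests of all genes. The fit without the 3 arrays gave 20 of 160, or 12.5%, against 9.82%, and called none. Genes called without the 3 arrays were then at 0.0496% for smoke in wild type, 0.00992% for smoke in the knock-down, 0.754% for smoke at 8 months and 0.104% for overexpression against room air in septa, and at 0% in the other 4 septa comparisons. In vessel they were at 0.616% for smoke in wild type, 0.977% and 6.80% for the knock-down in room air and under smoke, 0.0731% for smoke in the knock-down and 0.0685% for the interaction. The comparisons at 8 months in vessel had 0.00457% for smoke, 0.00457% for overexpression and 0.0502% for overexpression against room air. A test for any difference among the 7 groups called none of the 10 genes in septa, against 0.316% of genes, or in vessel, against 2.04%, with 8 and 2 of the 10 genes under an unadjusted p of 0.05, against 16.7% and 19.3% of genes.

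**Figure D5:**
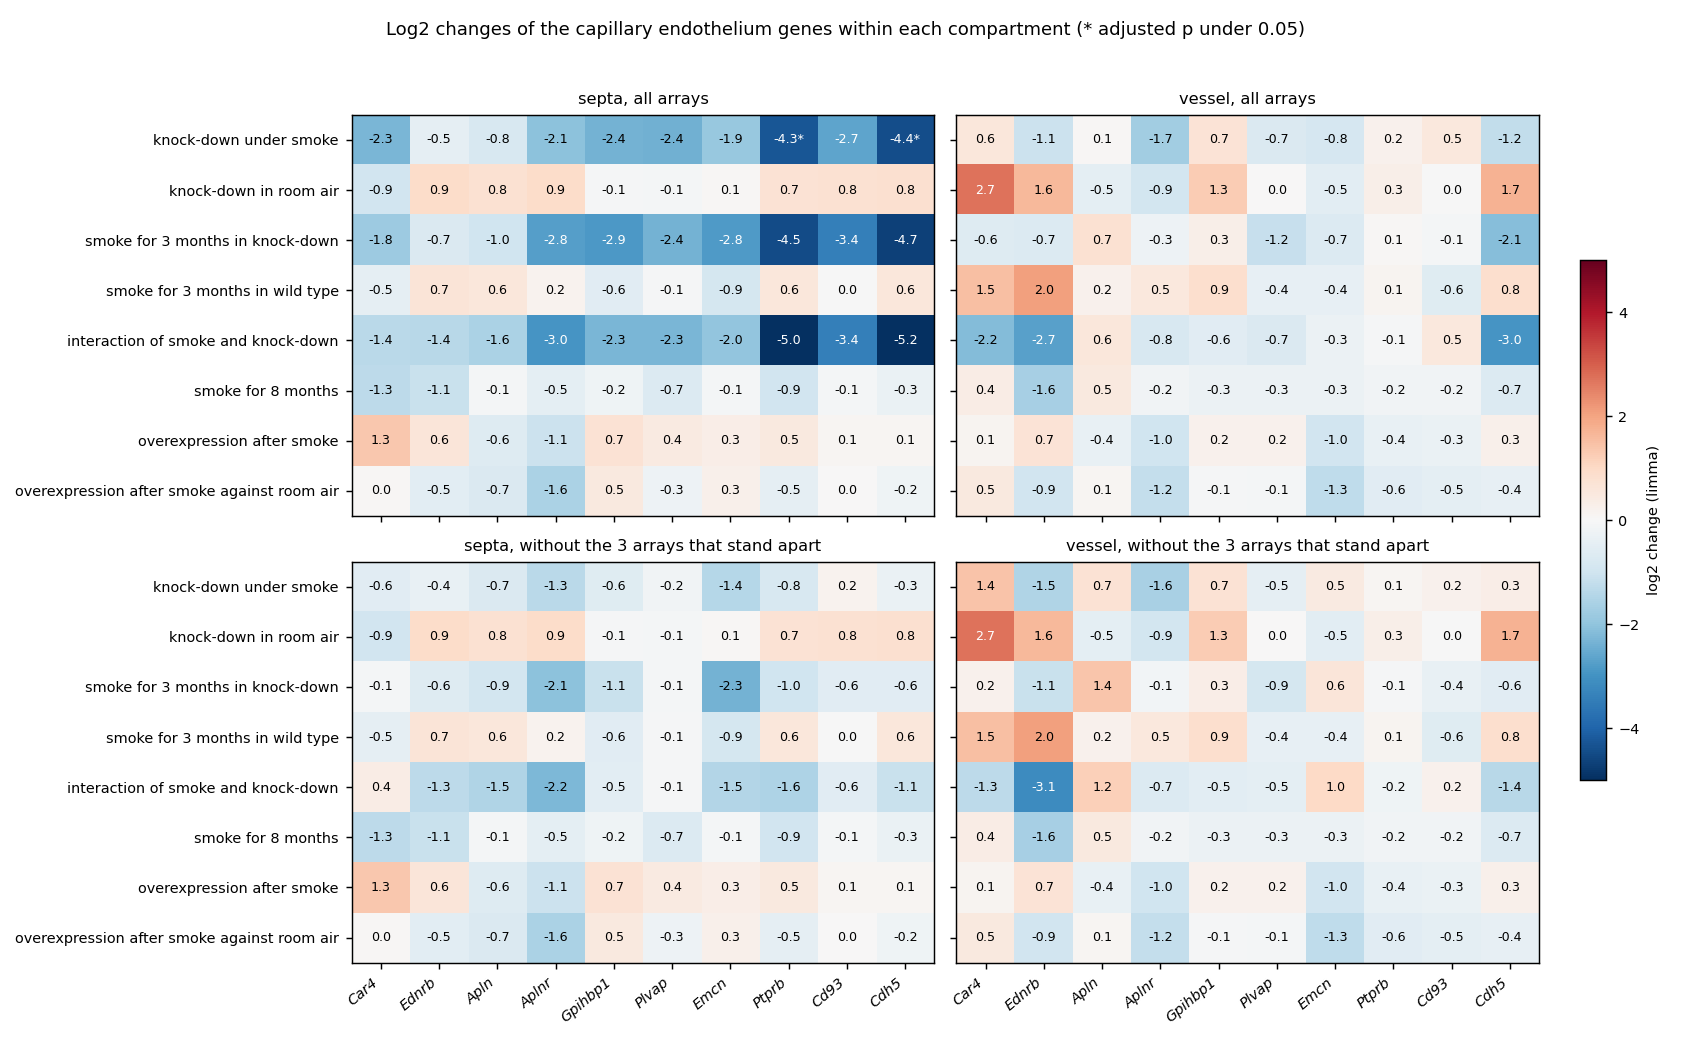
Log2 change of each gene (columns) in 8 comparisons (rows) within septa (left) and vessel (right), for all arrays (top) and without the 3 arrays that stand apart (bottom), with blue for lower, red for higher and a star where the adjusted p is under 0.05. The stars mark Ptprb (-4.3) and Cdh5 (-4.4) in septa for the knock-down under smoke, and no star remains without the 3 arrays.

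Likeness to the mean of the 10 genes was ranked only among genes above percentile 40 on every array used. Of the 10 genes themselves, only Plvap met this over all 68 arrays, so genes that fell as they did on single arrays were left out. Among the 2094 genes so ranked over the 14 group means, the leading ones were Hnrnph3 with a Pearson r of 0.97 and Gata2, Cavin2, Ptprc and Rapgef3 with 0.96 each. Gata2 is an endothelial and blood transcription factor and Cavin2 a protein of caveolae, while Ptprc is the leukocyte antigen CD45. The 14 points share arrays and normalisation. They are 7 septa and 7 vessel means, so a gene higher in septa can rank high for that alone. Without the 3 arrays the leading genes were Tle4 and Trim44 with 0.98, Gabarapl1 and Gng2 with 0.97 and Ilrun with 0.96, and over the 32 other septa arrays they were Cyp4b1 with 0.85, Snn with 0.84, Dok4 with 0.83 and Kif2a and Efna1 with 0.82.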

How the data were processed

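The deposited values are log2 intensities of 1-colour Agilent arrays that the authors had quantile normalised, with limma named per the submitters' processing notes and no version given. RNA was amplified before labelling with Cy3, per the labels' protocols. The 68 columns lay on 1 scale, from 3.27 to 15.98, with array percentiles within 0.00352 of each other, so no further normalisation was applied. Of 62976 features, 43941 carry 1 gene name, and each of 24306 gene names was given by its brightest probe. Genes with missing values (44 values on 5 arrays) were left out. Genes had to exceed percentile 40 on at least 4 arrays, which left 21514 genes in septa, 22280 in vessel and 23877 in the joint fit. Groups came from the sample titles. For 1 sample, WT_CS septa replicate 4, another label says knock-down. Models of group means were fitted with limma 3.58.1 in R 4.3.3 on all genes, with Benjamini-Hochberg adjustment over all genes and a threshold of 0.05, and the code was tested on simulated data. The number of arrays limits the precision. Members and lists were chosen with earlier results of these data known. All 10 members are named, with further genes taken from fixed lists. Replicate numbers were not taken to pair the arrays, since no label says so and the mean correlation of same-numbered septa and vessel deviations was 0.0466, with 6 of 34 pairs over 0.1, although Xist matched by number in 28 of 34. Promoters are from RefSeq, GRCm38.p6. Alternatives were dim genes kept, the mean of all probes, centring, array weights, the 3 arrays left out, the conflicting sample moved, the compared groups alone, a replicate block and each array left out.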

Additional observations from a re-analysis of the deposited data

Results flagged for a closer look

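In 15 of 140 sets of 4 or 5 arrays (10 genes in 14 groups), the highest or lowest array was separated from the others by more than Dixon's limit, where chance separates about 1 in 20. Of these, 5 lie on the arrays that stand apart. On FGF10_CS septa replicate 5 they were Aplnr at 5.43 (others 8.29 to 9.39) and Gpihbp1 at 4.57 (others 10.98 to 13.19). On FGF10_CS vessel replicate 5 they were Car4 at 5.38 (others 9.02 to 9.89), Emcn at 4.05 (others 10.24 to 10.94) and Cd93, which was high, at 14.86 (others 13.27 to 13.48). A further 3 lie on Control_CS8M septa replicate 4, with Car4 at 6.48 (others 10.84 to 11.09), Gpihbp1 at 10.42 (others 13.64 to 14.62) and Emcn at 6.38 (others 10.18 to 11.57).

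The remaining values were spread over other arrays. Ednrb was low on FGF10_CS vessel replicate 1, at 3.83 (others 9.78 to 11.05), and on Overexp_CS8M vessel replicate 5, at 7.80 (others 9.57 to 9.96). Apln was low on WT_CS septa replicate 3, at 8.84 (others 9.93 to 10.30), and Emcn on Overexp_CS8M septa replicate 1, at 9.09 (others 10.30 to 10.71). Gpihbp1 was high on Control_CS8M vessel replicate 2, at 14.26 (others 11.37 to 11.86). On Control_RA8M vessel arrays, Car4 was high on replicate 4, at 10.17 (others 7.90 to 8.53), and Ptprb low on replicate 3, at 12.94 (others 13.74 to 14.06).

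The change of Ptprb with the knock-down label under smoke differed between septa and vessel, at -4.52 in the test of the difference, and was -0.92 without the 3 arrays that stand apart.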

How the results depend on the processing

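The count of 5 genes higher in septa than in vessel stayed within 1.5 times under every alternative run, at 5 to 7 on leaving out single arrays. Other counts depended on the processing, and the causes were not tested. The 2 calls for the knock-down under smoke in septa became 0 with no filter on dim genes, the mean of all probes, array weights, the conflicting sample moved, the compared groups alone and without the 3 arrays, with or without a replicate block. Within conditions, array weights gave 0 genes in FGF10_CS, 6 in FGF10_RA, 6 in WT_CS, 6 in Overexp_CS8M, 5 in Control_CS8M and 5 in Control_RA8M, and 1 gene each for the knock-down under smoke and for any difference among groups in vessel. Without the 3 arrays these conditions had 0, 1, 3, 2, 2 and 2 genes, and with a replicate block besides 0, 1, 3, 3, 2 and 2. The replicate block alone gave 1 gene in FGF10_RA and 1 in Control_CS8M, both Aplnr (limma adjusted p = 0.043 and 0.0366). It left 93 of 97 results as they were, that is a count within 1.5 times or a single gene on its side of the threshold. The other 4 were these counts and the Aplnr tests behind them. With the conflicting sample moved, FGF10_CS had 1 gene and WT_CS 0. The 1 compartment difference of the knock-down under smoke became 0 with the mean of all probes, array weights, the conflicting sample moved and without the 3 arrays, with or without the block. Leaving out single arrays gave 0 to 8 genes in septa for the knock-down under smoke and for smoke in the knock-down, 0 to 2 for their interaction, 0 to 3 for any difference in septa, 1 to 4 in FGF10_CS, 0 to 1 in FGF10_RA, 0 to 2 in WT_CS, 1 to 4 in WT_RA, 0 to 1 in each of Overexp_CS8M, Control_CS8M and Control_RA8M, and 0 to 4 and 0 to 1 for the compartment differences of the knock-down under smoke and of smoke in the knock-down. Some signs turned. Without the 3 arrays, with or without the block, Cd93 had 0.18 for the knock-down under smoke in septa and 0.66 for septa against vessel in FGF10_CS (0.34 with array weights), Emcn had -0.074 (-0.0742 with the block) and Ptprb 0.13 for septa against vessel. Emcn ran from -0.14 to 0.17 on leaving out single arrays, and Ptprb had 0.23 with the mean of probes and 0.28 with array weights. In septa, Car4 under smoke in the knock-down had 0.15 with array weights and with the block without the 3 arrays. A dimmer Ednrb probe had -1.29 for smoke in wild type in vessel, while the other dimmer probe kept the sign, at 1.15. The dimmer Ptprb probe had 1.79 for the knock-down under smoke, 1.56 for smoke in the knock-down and 0.69 for the interaction in septa, 0.85 for septa against vessel, 2.37 (adjusted p = 0.014) in FGF10_CS and 1.69 for the compartment difference of the knock-down under smoke.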
